A study of Mus musculus with 2 samples.

Results

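The genes described here are those of intraflagellar transport and of the BBSome, followed through spermatogenesis in the adult mouse testis. They were chosen by their symbols: every gene whose name starts with Ift or Bbs and a digit, together with Traf3ip1, Ttc8, Ttc21b, Ttc26, Ttc30a1, Ttc30a2, Ttc30b, Cluap1, Wdr19 and Wdr35. This gave 33 of the 50686 genes counted. The study sequenced RNA of single cells from the testes of 2 wild-type mice of strain C57Bl/6J Crl, 8 weeks of age, with 1 droplet library per mouse. No mouse was treated, so the comparisons are between stages of germ cell development within both animals. The files held 2552 cells, 1237 from mouse 1 and 1315 from mouse 2, and whole counts of unique molecular identifiers (UMIs), each standing for a captured RNA molecule counted at its 3′ end. The tubules were cut open, digested with enzymes and passed through a strainer that reduces somatic cells, so the mixture of cells is that of the suspension rather than of the intact testis.

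Cilia and sperm tails are built on an axoneme of microtubules, and intraflagellar transport (IFT) carries cargo along it. The IFT-B complex moves towards the tip with kinesin-2 motors, the IFT-A complex returns with dynein-2, and the BBSome is an adaptor that rides on these trains and sorts membrane proteins. In the testis the sperm tail begins to grow in round spermatids and is assembled while spermatids elongate, and several IFT proteins are known to be required for it in the mouse.

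Cells were placed in clusters by K-means without using the 33 genes, and clusters were named by marker genes. A total of 2534 cells fell into 6 germ cell clusters, given here in an inferred developmental order in which markers placed the elongating ones. These were 164 early spermatocyte-like cells, 526 pachytene or later spermatocyte-like cells, 689 cells led by the testis genes Ssxb1, Ssxb2 and Ssxb3 that stayed unnamed, 450 round spermatid-like cells, and elongating or condensing spermatid-like cells in a smaller cluster of 196 and a larger cluster of 509. The unnamed cluster scored highest on round spermatid markers, at 0.541 against 0.216 on pachytene or later markers. Of the round spermatid markers only the Ssxb genes were high enough there, and they counted as 1 family. Median depth was between 18797 and 23634 UMIs per cell in the first 5 clusters and 11702 in the larger elongating cluster. Levels are given as CPM, a gene's UMIs scaled to a fixed total over all cells of a cluster and mouse, so they are shares of the RNA captured there. In the larger elongating cluster 20.3% of UMIs in mouse 1 and 17.7% in mouse 2 came from 12 marker genes of late spermatids such as the protamines, against at most 1.23% up to the round spermatids. Fewer cells expressing a gene and less RNA of it per cell cannot be told apart in such sums.

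Of the 33 genes, 32 had UMIs in each mouse, between 117 in all for Bbs12 and 23407 for Ift74. The exception was Ift88os, an antisense gene within Ift88, which had 0 UMIs among 27450497 in mouse 1 and 30302332 in mouse 2. All 32 passed the filter on low counts, and 25 of them had at least 10 UMIs in every one of the 10 sums of counts that entered the test. The other 7 (Ttc30a1, Ttc30b, Bbs1, Bbs4, Bbs10, Bbs12 and Ttc8) passed through the classes in which they were high. Changes of these 7 into or away from such classes are therefore not independent of the filter. They are included in the counts of members below.

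**Figure D1:**
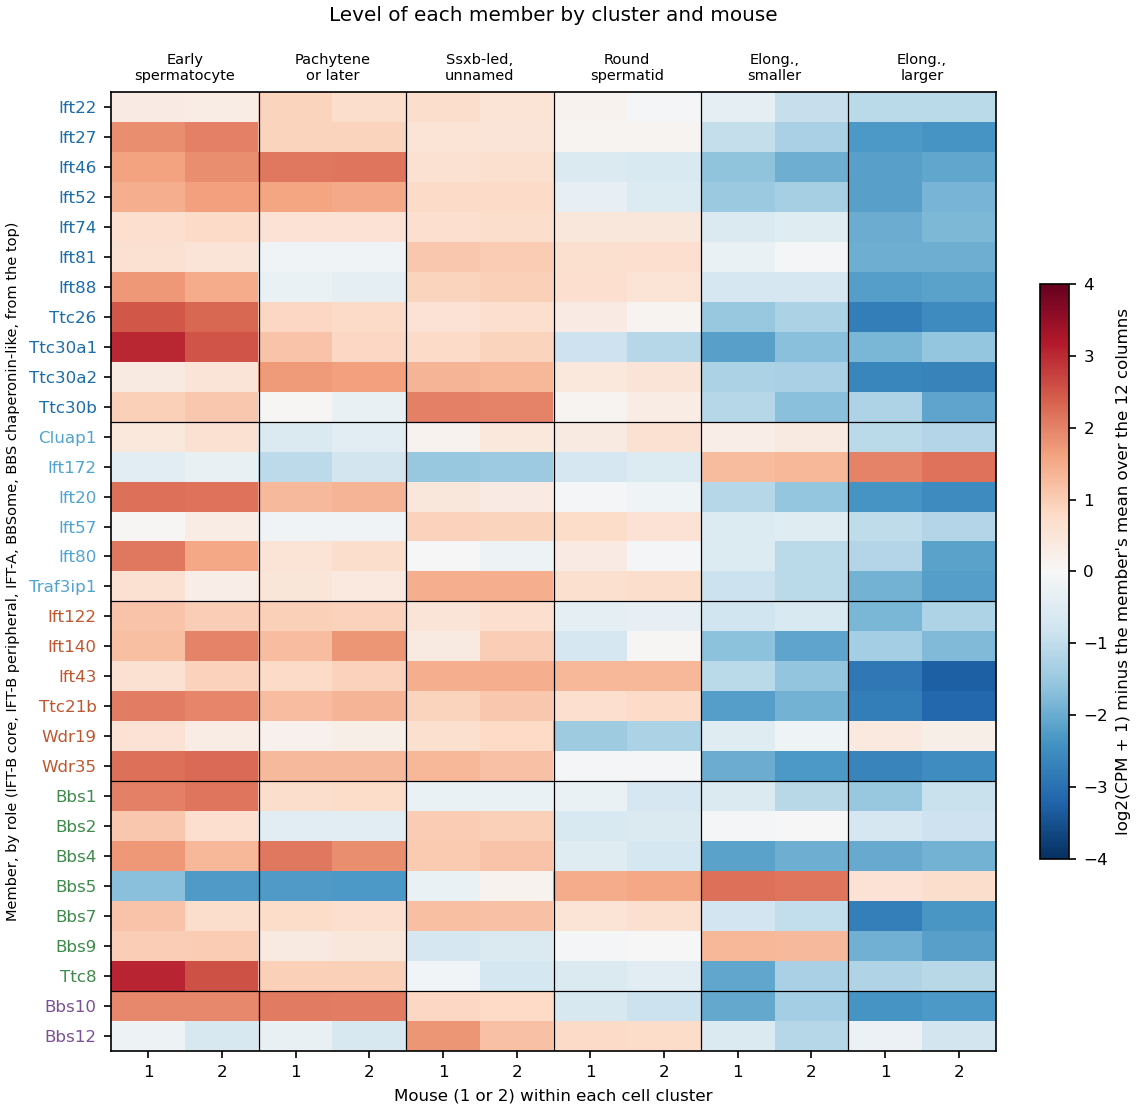
Each row is a member and each pair of columns a cluster in mouse 1 and mouse 2; colour gives log2(CPM + 1) minus the member's mean over the 12 columns. Most rows turn from red on the left to blue on the right, while Ift172 is highest in the larger elongating cluster and Bbs5 in the smaller.

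Most members had lower levels in late spermatids than in spermatocytes. In CPM, 30 of 32 were lower in the larger elongating cluster than in early spermatocytes in both mice, and the 2 that were higher were Ift172 and Bbs5. Of the 15002 rows tested, 60.9% were lower and 28.3% higher there in both mice. By the cluster of their highest CPM, in both mice alike, 12 members peaked in early spermatocytes, 5 in pachytene or later spermatocytes, 8 in the Ssxb-led cluster, 2 in the smaller elongating cluster (Bbs5 and Bbs9) and 1 in the larger (Ift172). Bbs2, Cluap1, Ift140 and Ift52 peaked in different clusters in the mice. Peak clusters were not counted over all rows.

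For the tests, UMIs were summed per mouse and class of cells, with both elongating clusters taken as 1 class, and compared with edgeR's quasi-likelihood test over 15002 rows. From early to pachytene or later spermatocytes 4 members rose and 14 fell at an adjusted p under 0.05, where 24.9% of all rows rose and 23.4% fell. From there to round spermatids 9 rose and 15 fell, beside 36.9% and 37.4% of all rows. From round to elongating or condensing spermatids 5 rose and 18 fell, beside 27.0% and 26.0% of all rows. Over all members, the share that fell was above that of all rows in each comparison, and the share that rose was below it. These counts include the 7 members that passed the filter through the classes in which they were high. Of those, Ttc30a1, Bbs1, Bbs4, Bbs10 and Ttc8 were among the 15 that fell into round spermatids. The shares without the 7 were not computed, so the comparison with all rows rests in part on them, above all into round spermatids. The median log2 fold changes of the members were -0.15, -0.28 and -0.70, and those of all rows tested were 0.01, -0.11 and -0.02. Across the 3 comparisons 16 members fell at least once and never rose, and 3 of these (Ift20, Ift27 and Wdr35) fell in all 3. Such patterns were not counted over all rows. Bbs5, Bbs9 and Ift172 rose at least once and fell in none of the 3, though the last rise of Bbs5 and Bbs9 depended on the scaling.

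The choice of scaling moved these values. With library totals in place of the trimmed mean of M values (TMM), the median of all rows moved by -0.25, -0.31 and -0.85 in the 3 comparisons. The members called higher and lower were then 4 and 17, 7 and 19, and 2 and 26. Of all 15002 rows, 2877 and 4578, 5032 and 6739, and 2180 and 7510 were then called higher and lower. Under DESeq2 the round spermatid comparison gave 12 higher and 12 lower, beside 5811 and 4217 of all 15002 rows.

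**Figure D2:**
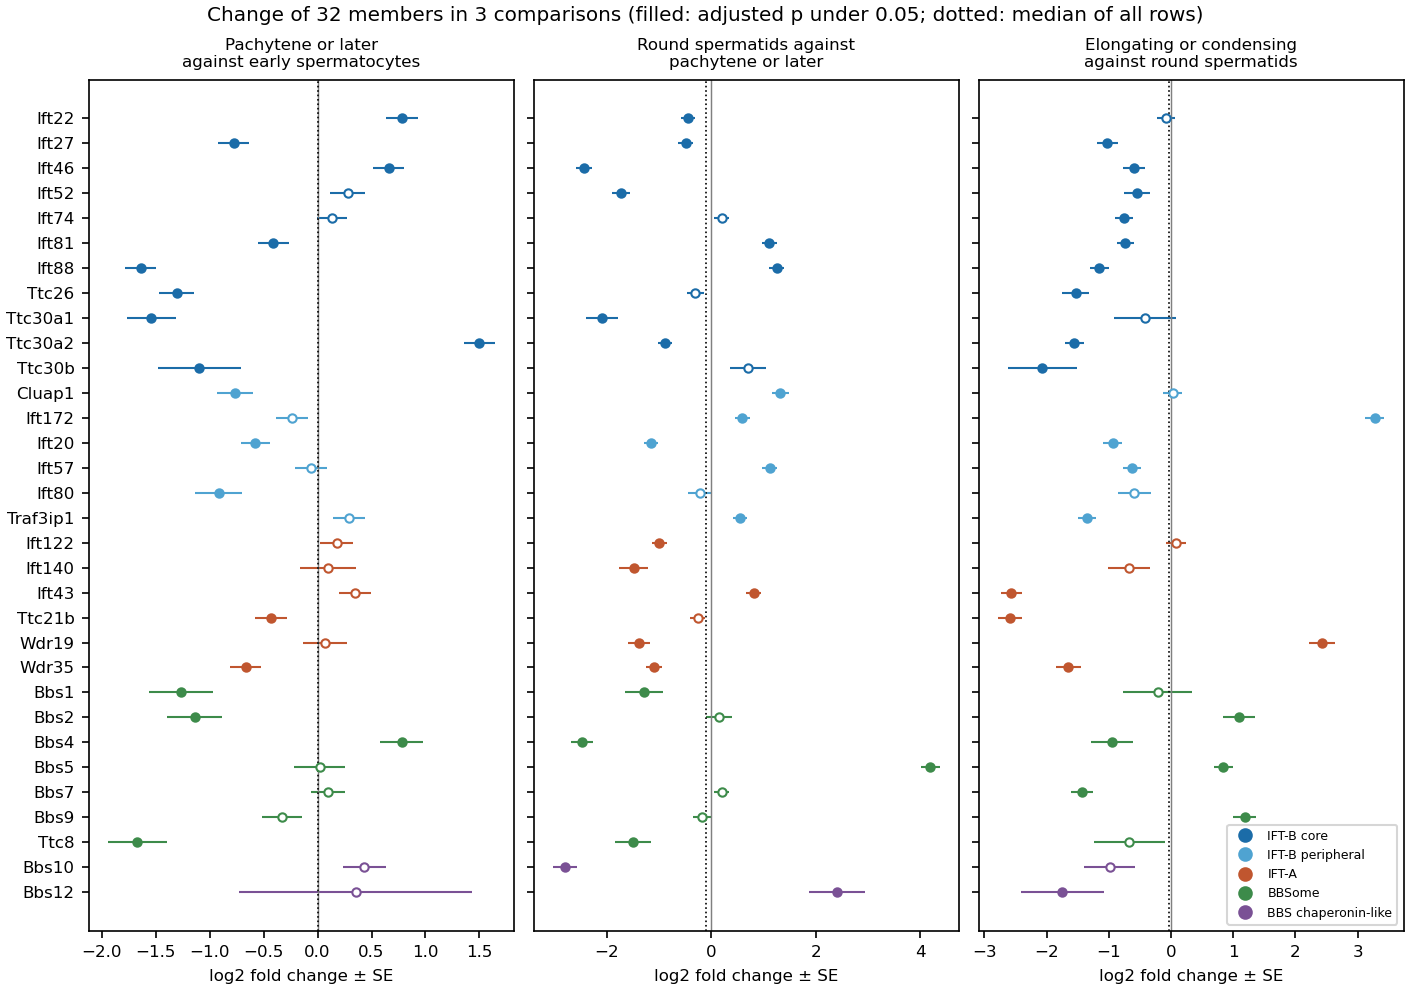
Points are log2 fold changes of the 32 members with their standard errors (SE) in the 3 comparisons after TMM scaling, filled where the adjusted p was under 0.05, and the dotted line is the median of all rows. In the right panel 18 members fell and 5 rose. With library totals 26 fell and 2 rose, Bbs5 turned to -0.02, and Bbs2 and Bbs9 were not called.

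The IFT-B core, the inner part of the anterograde complex, had 11 members. Of these, 3 rose and 6 fell into pachytene or later spermatocytes, 2 rose and 6 fell into round spermatids, and 9 fell and 0 rose into elongating or condensing spermatids (edgeR; also 0 rose at an unadjusted p under 0.05 and 0 under DESeq2). The shares of all rows that rose and fell were 24.9% and 23.4%, 36.9% and 37.4%, and 27.0% and 26.0% in these comparisons. Under DESeq2 4 of the 11 rose and 4 fell into round spermatids, beside 5811 and 4217 of all 15002 rows. The median log2 fold changes of the 11 were -0.41, -0.45 and -0.76. Ift88, whose loss is a classic cause of short or absent cilia, stood at 163 CPM in mouse 1 and 138 in mouse 2 in early spermatocytes and at 40.1 and 38.1 in pachytene or later spermatocytes. It was 91.7 and 94.3 CPM in the Ssxb-led cluster, 78.8 and 71.5 in round spermatids, 30.4 and 30.1 in the smaller elongating cluster and 9.87 and 10.3 in the larger. Ift88 thus fell, rose and fell again, and at each of these steps the mice did not overlap with those of the class before. Its log2 fold changes were -1.64 ± 0.15 (SE, adjusted p = 1.70e-08), 1.25 ± 0.14 (adjusted p = 1.08e-07) and -1.15 ± 0.15 (adjusted p = 2.26e-06) in the 3 edgeR comparisons. With the Ssxb-led cells counted as spermatocytes the first fall was -0.93 and the rise 0.53, and over all alternatives these lay between -1.93 and -0.93 and between 0.53 and 1.48. Ift81, which with Ift74 binds tubulin, followed the same course, at 132 and 121 CPM, then 77.5 and 77.9, then 181 and 172 in the Ssxb-led cluster and 21.2 and 21.2 at the end. Ift74 itself changed little until late. It lay between 429 and 534 CPM in both mice in the first 4 clusters and at 77.9 and 88.7 in the larger elongating cluster, with no call in the first 2 comparisons and a log2 fold change of -0.76 ± 0.14 in the last (edgeR, adjusted p = 1.24e-04).

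Ttc26, Ift27, Ift46, Ift52 and Ift22 had their highest levels in spermatocytes. Ttc26 (also called DYF13) fell from 122 and 109 CPM in early spermatocytes to 38.7 and 37.0 in pachytene or later cells and 2.26 and 2.89 in the larger elongating cluster. Its log2 fold change was -1.31 ± 0.16 (adjusted p = 1.04e-06) in the first comparison and -1.54 ± 0.22 (adjusted p = 4.13e-06) in the last. Ift46 rose by 0.66 ± 0.14 (adjusted p = 7.42e-04) to 236 and 243 CPM in pachytene or later cells, a rise no longer called (log2 fold change 0.20) when the Ssxb-led cells were counted as spermatocytes. It then dropped to 36.0 and 34.8 in round spermatids, by a log2 fold change of -2.44 ± 0.15 (adjusted p = 9.85e-12). Ift22, a small GTPase-like subunit, rose by 0.78 ± 0.15 (adjusted p = 1.79e-04) to 198 and 175 CPM (0.49 with library totals) and was 49.9 and 50.1 at the end. Ift52 kept 69.6 to 78.9 CPM in both spermatocyte clusters and fell to 19.6 and 16.8 in round spermatids, with a log2 fold change of -1.73 ± 0.17 (adjusted p = 1.11e-08), or -0.99 with the Ssxb-led cells counted as round spermatids. Ift27, a Rab-like GTPase of the complex, fell in all 3 comparisons, from 174 and 194 CPM to 8.75 and 8.35.

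The related genes Ttc30a1, Ttc30a2 and Ttc30b lie in tandem on the minus strand of chromosome 2 and encode copies of the same IFT-B subunit. In GRCm38 they span chr2:75978247-75981967, chr2:75975740-75978170 and chr2:75935849-75938585. Ttc30a2 rose from 150.2 and 168 CPM in early spermatocytes to 378 and 365 in pachytene or later cells, a log2 fold change of 1.50 ± 0.14 (edgeR, adjusted p = 3.31e-08). It then declined to 157 and 165 in round spermatids and 18.1 and 17.4 in the larger elongating cluster. Ttc30a1 moved the other way at the first step, from 53.1 and 37.2 to 13.6 and 10.7 CPM (log2 fold change -1.54 ± 0.23, adjusted p = 1.26e-05). It fell again into round spermatids by -2.08 ± 0.31 (adjusted p = 3.83e-06), where it had 12 UMIs in each mouse. This second fall was -0.55 with the Ssxb-led cells counted as round spermatids and -1.20 in cells thinned to 5000 UMIs, and over all alternatives it lay between -2.39 and -0.55. Of the UMIs on the 3 genes, Ttc30a1 held 25.2% and 17.4% in early spermatocytes and 3.44% and 2.83% in pachytene or later cells. Ttc30b was 16.5 and 16.1 CPM in the Ssxb-led cluster and between 2.55 and 8.26 in both spermatocyte clusters. It fell to 5 UMIs in mouse 1 and 1 in mouse 2 in the elongating class (log2 fold change -2.07 ± 0.55, adjusted p = 3.19e-03), a call lost when cells were thinned to 5000 UMIs (over all alternatives the adjusted p lay between 4.90e-07 and 0.196). These copies resemble each other, and reads that match several of them could be assigned wrongly or dropped, so the division among them is uncertain. Ttc30a1 and Ttc30b also passed the filter on low counts through classes in which they were high, so their calls are not independent of it.

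The 6 peripheral IFT-B members did not share a course. At the first step 0 rose and 3 fell (edgeR; 0 rose also at an unadjusted p under 0.05 and under DESeq2), 4 rose and 1 fell into round spermatids, and 1 rose and 3 fell into elongating or condensing spermatids. Their median log2 fold changes were -0.41, 0.57 and -0.60. The shares of all rows that rose and fell were 24.9% and 23.4%, 36.9% and 37.4%, and 27.0% and 26.0%. Ift20, which also resides at the Golgi and is used in vesicle traffic to the acrosome, fell in all 3 comparisons and was lower in each successive cluster, from 312 and 311 CPM in early spermatocytes to 169 and 173, 92.8 and 85.1, 64.1 and 59.4, 30.0 and 22.6, and finally 12.4 and 10.9. Ift57 and Traf3ip1 (the IFT54 subunit) were highest in the Ssxb-led cluster. Ift57 went from 98.3 and 96.3 CPM in pachytene or later cells to 205 and 198 in the Ssxb-led cluster and 179 and 162 in round spermatids, a log2 fold change of 1.12 ± 0.14 between the named classes (adjusted p = 4.03e-07), or 0.53 with the Ssxb-led cells counted as spermatocytes. Traf3ip1 went from 85.8 and 79.2 to 169 and 168 in the Ssxb-led cluster, then 95.6 and 98.9, 33.3 and 27.9, and 15.5 and 12.5 CPM. Cluap1 (IFT38) fell by 0.77 on the log2 scale at the first step and rose by 1.32 ± 0.16 (adjusted p = 2.09e-07) into round spermatids, at 95.2 and 113 CPM. That rise was 0.87 with the Ssxb-led cells counted as spermatocytes. It was still at 88.9 and 95.5 CPM in the smaller elongating cluster and at 34.7 and 32.1 in the larger. Ift80 fell from 66.0 and 44.2 to 21.8 and 24.4 CPM at the first step and stood at 5.92 and 2.57 at the end, and 4 annotated genes overlap it on the same strand.

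Ift172, the largest IFT-B subunit, ran against the rest of its complex. It stood at 138 CPM in mouse 1 and 154 in mouse 2 in early spermatocytes, at 91.3 and 114 in pachytene or later cells and at 65.5 and 69.0 in the Ssxb-led cluster. It was then 118.7 and 129.6 CPM in round spermatids, 457 and 477 in the smaller elongating cluster and 760.1 and 859.5 in the larger. Every value in the elongating clusters lay above every value in the earlier clusters in both mice. The larger elongating cluster exceeded round spermatids 6.40-fold in mouse 1 and 6.63-fold in mouse 2, and the log2 fold change of the elongating class over round spermatids was 3.28 ± 0.15 (edgeR, adjusted p = 3.96e-13). With library totals it was 2.42, and across all alternatives it lay between 2.42 and 3.67.

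The rise of Ift172 from round spermatids into both elongating clusters was also present in molecules per cell. A cell held 2.70 and 3.03 UMIs of it on average in round spermatids, 10.9 and 12.4 in the smaller elongating cluster and 9.59 and 11.7 in the larger, whose cells yielded fewer UMIs in all. When each cluster was fitted separately, Ift172 fell from pachytene or later cells to the Ssxb-led cluster (-0.54 ± 0.15, adjusted p = 2.76e-03). It then rose by 1.13 ± 0.15 into round spermatids (adjusted p = 1.33e-06), by 2.42 ± 0.15 into the smaller elongating cluster (adjusted p = 7.75e-12) and by 1.39 ± 0.14 into the larger (adjusted p = 5.95e-08). At this last step Ift172 UMIs per cell did not rise in either mouse, and CPM went from 457 and 477 to 760.1 and 859.5. The fits of separate clusters used TMM scaling and were not repeated with library totals. Meanwhile the sum of the other 16 IFT-B members went from 2355 and 2393 CPM in early spermatocytes to 1508 and 1485 in round spermatids and 327 and 323 in the larger elongating cluster. Ift172 thereby made up 5.55% and 6.03% of the UMIs of the 17 IFT-B members in early spermatocytes, 38.5% and 39.9% in the smaller elongating cluster and 69.9% and 72.7% in the larger. Adding Hspb11, the IFT25 subunit that the choice by symbol left out, gave 5.25% and 5.71% in the first and 69.2% and 72.1% in the last.

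**Figure D3:**
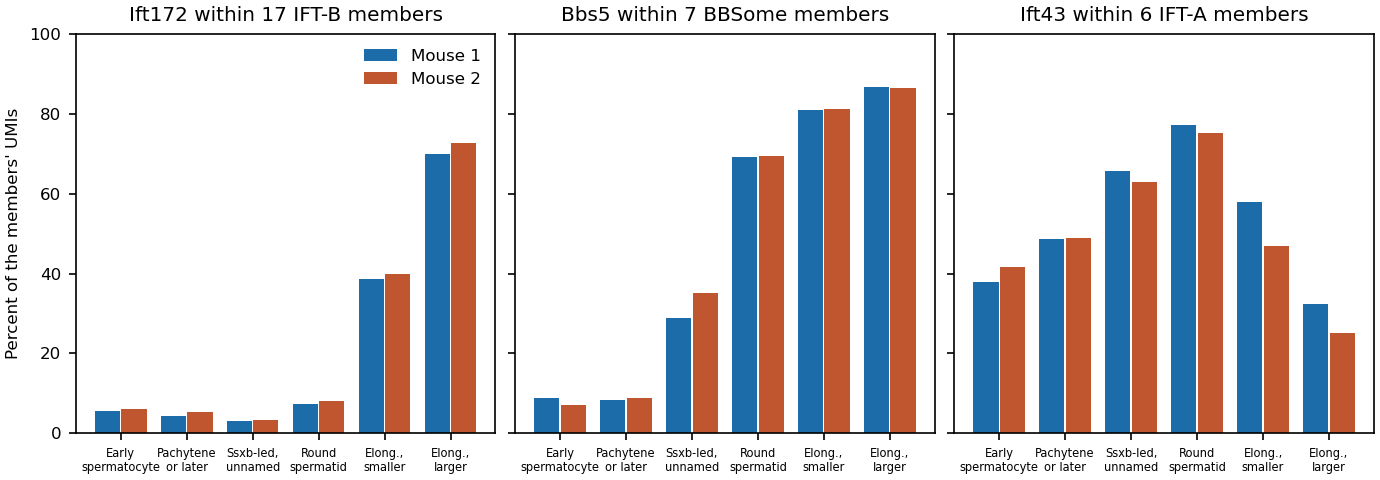
Bars give the percent of UMIs on a complex's members as chosen by symbol that came from the named one in each cluster, with mouse 1 in blue and mouse 2 in orange. Ift172 went from 5.55% and 6.03% of 17 IFT-B members to 69.9% and 72.7%, and Bbs5 from 8.75% and 7.19% of 7 BBSome members, which leave out Bbip1, to 86.6% and 86.4% (63.6% and 68.1% with Bbip1).

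The IFT-A complex, which returns from the tip, had 6 members. At the first step 0 rose and 2 fell (edgeR; 1 rose at an unadjusted p under 0.05 and 0 under DESeq2), 1 rose and 4 fell into round spermatids, and 1 rose and 3 fell into elongating or condensing spermatids. Their median log2 fold changes were 0.08, -1.04 and -1.16. Of all rows, 24.9% rose and 23.4% fell at the first step, 36.9% and 37.4% at the second, and 27.0% and 26.0% at the last. Ift43, its smallest subunit, was 308 and 379 CPM in early spermatocytes, 343 and 379.5 in pachytene or later cells, 558 and 549 in the Ssxb-led cluster and 509.9 and 508 in round spermatids. It dropped to 95.7 and 66.5 CPM in the smaller elongating cluster and 27.1 and 20.2 in the larger. The rise into round spermatids was 0.81 ± 0.15 (edgeR, adjusted p = 6.14e-05) and the fall thereafter -2.56 ± 0.16 (adjusted p = 4.74e-11). The rise leaves out the Ssxb-led cells, in which Ift43 was higher than in round spermatids. It may therefore depend on the name of those cells, and no alternative is given for it. Among IFT-A UMIs the share of Ift43 went from 37.8% and 41.6% in early spermatocytes to 77.1% and 75.2% in round spermatids and back to 32.4% and 25.1% in the larger elongating cluster.

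The other IFT-A members differed in their course. Wdr35 (IFT121) fell in all 3 comparisons, from 140.2 and 149 CPM to 75.7 and 74.2, then 28.1 and 28.2 in round spermatids and 3.95 and 4.50 at the end, and the edgeR value for the last step was -1.65 ± 0.20 (adjusted p = 6.43e-07), or -2.64 with the Ssxb-led cells counted as round spermatids and -2.51 with library totals. Ttc21b (IFT139) kept 49.5 and 52.7 CPM in round spermatids and 5.80 and 7.43 in the smaller elongating cluster, and the fall into the elongating class was -2.59 ± 0.19 (adjusted p = 5.22e-10). Ift122 was at 148 and 130.5 CPM in early spermatocytes, 51.2 and 52.2 in round spermatids and 17.8 and 27.3 at the end. Wdr19 (IFT144) was between 18.0 and 28.1 CPM in the first 3 clusters, at 5.30 and 5.94 in round spermatids, at 11.1 and 13.8 in the smaller elongating cluster and at 20.9 and 18.6 in the larger. In CPM it therefore was lowest in round spermatids in both mice and returned to near its spermatocyte level. The fall into round spermatids was -1.39 ± 0.21 (adjusted p = 5.27e-06) and the later rise 2.43 ± 0.21 (adjusted p = 5.95e-09). The fall leaves out the Ssxb-led cells, in which Wdr19 was above its 18.0 and 18.9 CPM in pachytene or later cells. It may therefore depend on the name of those cells, and alternatives are given for the rise only. The rise was 1.57 with library totals, 1.47 with Leiden clusters and 0.73 when the Ssxb-led cells, in which Wdr19 stood at 25.2 and 28.1 CPM, were counted as round spermatids, and over all alternatives it lay between 0.73 and 2.54. Per cell this rise was smaller, from 0.120 and 0.139 UMIs of Wdr19 in round spermatids to 0.263 and 0.254 in the larger elongating cluster. Per cell it did not return to the spermatocyte level. Early spermatocytes held 26 UMIs of Wdr19 in 53 cells of mouse 1 and 48 in 111 of mouse 2. Pachytene or later cells held 188 in 307 and 141 in 219.

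Ift140 differed between the mice. It stood at 65.0 CPM in mouse 1 and 111 in mouse 2 in early spermatocytes, 66.8 and 95.9 in pachytene or later cells, 36.2 and 55.9 in the Ssxb-led cluster and 17.1 and 28.6 in round spermatids. Mouse 2 was higher by 1.44 to 1.71 times in these 4 clusters. Among 23 members with enough UMIs to compare, Ift140 was the only one at least 1.25 times higher in mouse 2 in every cluster compared, a pattern seen in 0.982% of 5093 rows, and with 1 mouse on each side it has no test. In the elongating clusters, with 16 to 36 UMIs per mouse, the order was the reverse, at 8.22 and 5.66 CPM and then 10.2 and 7.39. Its fall into round spermatids was common to both animals (-1.49 ± 0.27, adjusted p = 5.17e-05).

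The BBSome was measured through the 7 of its subunits chosen by symbol, which leave out Bbip1 (BBS18). At the first step 1 rose and 3 fell, into round spermatids 1 rose and 3 fell, and into elongating or condensing spermatids 3 rose and 2 fell. Their median log2 fold changes were -0.33, -0.17 and -0.21. Under DESeq2 the counts that rose and fell were 0 and 4, 2 and 2, and 3 and 1. The 3 that fell into round spermatids were Bbs4, Ttc8 and Bbs1. They passed the filter on low counts through classes in which they were high, so their calls are not independent of it. The 3 late rises were those of Bbs5, Bbs2 and Bbs9. With library totals Bbs5 turned to -0.02, and Bbs2 and Bbs9 were not called. Among all rows 24.9% rose and 23.4% fell at the first step, 36.9% and 37.4% at the second, and 27.0% and 26.0% at the last. Bbs5, a subunit that binds phosphoinositides, had its low levels in spermatocytes and its high levels in spermatids. It stood at 21.1 and 13.6 CPM in early spermatocytes, 13.7 and 13.4 in pachytene or later cells, 57.9 and 76.2 in the Ssxb-led cluster, 195 and 206 in round spermatids, 322 and 314 in the smaller elongating cluster and 106 and 114 in the larger. The smaller elongating cluster was 23.5-fold and 23.4-fold above the pachytene or later cells, and these clusters did not overlap. The log2 fold change from pachytene or later to round spermatids was 4.19 ± 0.18 (edgeR, adjusted p = 1.63e-14). It was 2.68 when the Ssxb-led cells were counted as spermatocytes, and over all alternatives it lay between 2.68 and 4.43.

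After round spermatids the course of Bbs5 turned. Between the separate clusters it rose by 1.18 ± 0.14 into the smaller elongating cluster (adjusted p = 4.37e-07) and fell by 0.94 ± 0.15 into the larger (adjusted p = 2.15e-05). For both elongating clusters together the change was 0.84 ± 0.15 after TMM scaling (adjusted p = 6.47e-05) but -0.02 with library totals, and over all alternatives the adjusted p lay between 4.25e-13 and 0.912. A cell held 4.44 and 4.81 UMIs of Bbs5 on average in round spermatids, 7.67 and 8.16 in the smaller elongating cluster and 1.33 and 1.56 in the larger. The other 6 BBSome members chosen by symbol were together at 220 and 176 CPM in early spermatocytes, 86.6 and 90.5 in round spermatids and 16.4 and 18.0 in the larger elongating cluster. Bbs5 accordingly took 8.75% and 7.19% of the UMIs of these 7 in early spermatocytes, 69.3% and 69.4% in round spermatids and 86.6% and 86.4% in the larger elongating cluster. Bbip1 had more UMIs than Bbs5 up to round spermatids, with 476 and 518 CPM in early spermatocytes, 327 and 296 in round spermatids and 44.0 and 35.7 in the larger elongating cluster. With it added, the other subunits summed to 696 and 694, 413 and 387, and 60.4 and 53.7 CPM in these clusters, and the share of Bbs5 was 2.94% and 1.93%, 32.1% and 34.7%, and 63.6% and 68.1%.

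Bbs9, a scaffold subunit of the BBSome, was high in early spermatocytes and again in the smaller elongating cluster, and lowest in the larger. It was 33.9 and 34.7 CPM in early spermatocytes, 22.0 and 23.2 in pachytene or later cells, 10.2 and 10.9 in the Ssxb-led cluster and 15.7 and 16.5 in round spermatids. It reached 43.5 and 42.8 in the smaller elongating cluster and was 3.67 and 2.89 in the larger. The separate clusters gave a rise of 1.93 ± 0.18 into the smaller elongating cluster (edgeR, adjusted p = 6.89e-09) and a fall of 3.11 ± 0.25 after it (adjusted p = 1.76e-09). Over both elongating clusters the change was 1.18 ± 0.18 (adjusted p = 1.49e-05), and it was not called with library totals (0.32), Leiden clusters (0.47) or thinned cells (0.80). Over all alternatives its adjusted p lay between 4.06e-10 and 0.123.

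Bbs4, Ttc8, Bbs1, Bbs2 and Bbs7 ended between 0.282 and 6.75 CPM in the larger elongating cluster. The calls of Bbs4, Ttc8 and Bbs1 are not independent of the filter on low counts. Bbs4 rose by 0.78 ± 0.20 at the first step (adjusted p = 2.59e-03), a call lost under DESeq2, in thinned cells and when the Ssxb-led cells were counted as spermatocytes (adjusted p between 1.11e-04 and 0.310 over all alternatives). It then fell from 45.4 and 38.1 CPM to 6.68 and 5.61 in round spermatids, by -2.47 ± 0.21 (adjusted p = 1.31e-09), or -1.24 with the Ssxb-led cells counted as round spermatids. Ttc8 (BBS8) was 33.9 and 23.5 CPM in early spermatocytes, 7.10 and 7.11 in pachytene or later cells and 1.84 and 2.15 in round spermatids, with a first fall of -1.67 ± 0.27 (adjusted p = 3.25e-05). Bbs1 went from 13.7 and 15.3 to 4.99 and 5.10 CPM at that step (-1.26 ± 0.30, adjusted p = 1.41e-03) and to 2.07 and 1.32 in round spermatids, where it had 9 and 8 UMIs. Bbs2 was 19.2 and 14.5 CPM in early spermatocytes, 6.04 in both mice in pachytene or later cells, 18.6 and 17.5 in the Ssxb-led cluster and 5.30 and 5.45 in round spermatids. Its rise of 1.09 ± 0.26 into elongating or condensing spermatids (adjusted p = 1.34e-03) was not called with Leiden clusters (0.26) or library totals (0.23) and turned to -0.19 when the Ssxb-led cells were counted as round spermatids. Over all alternatives its adjusted p lay between 3.50e-04 and 0.470. Bbs7 lay between 55.1 and 87.0 CPM through round spermatids and at 4.80 and 6.75 at the end.

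Bbs10 and Bbs12 encode chaperonin-like proteins that help to assemble the BBSome, and their CPM moved in opposite directions into round spermatids. Both passed the filter on low counts through the classes in which they were high, so their calls are not independent of the filter. Bbs10 stood at 32.9 and 32.3 CPM in pachytene or later cells, 13.3 and 13.0 in the Ssxb-led cluster and 4.15 and 3.47 in round spermatids, a log2 fold change of -2.80 ± 0.23 (edgeR, adjusted p = 8.19e-10), or -1.63 with the Ssxb-led cells counted as round spermatids. Bbs12 had few UMIs. It had 8 and 3 in pachytene or later cells, 38 and 33 in the Ssxb-led cluster, 12 and 16 in round spermatids and 4 and 1 in the elongating class. The test gave 2.40 ± 0.53 into round spermatids (adjusted p = 4.27e-04) and -1.75 ± 0.67 after them (adjusted p = 0.0337). The first call was lost when the Ssxb-led cells were counted as spermatocytes (0.36) and the second under DESeq2. Over all alternatives the adjusted p lay between 5.79e-06 and 0.453 for the first and between 1.09e-03 and 0.119 for the second.

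**Figure D4:**
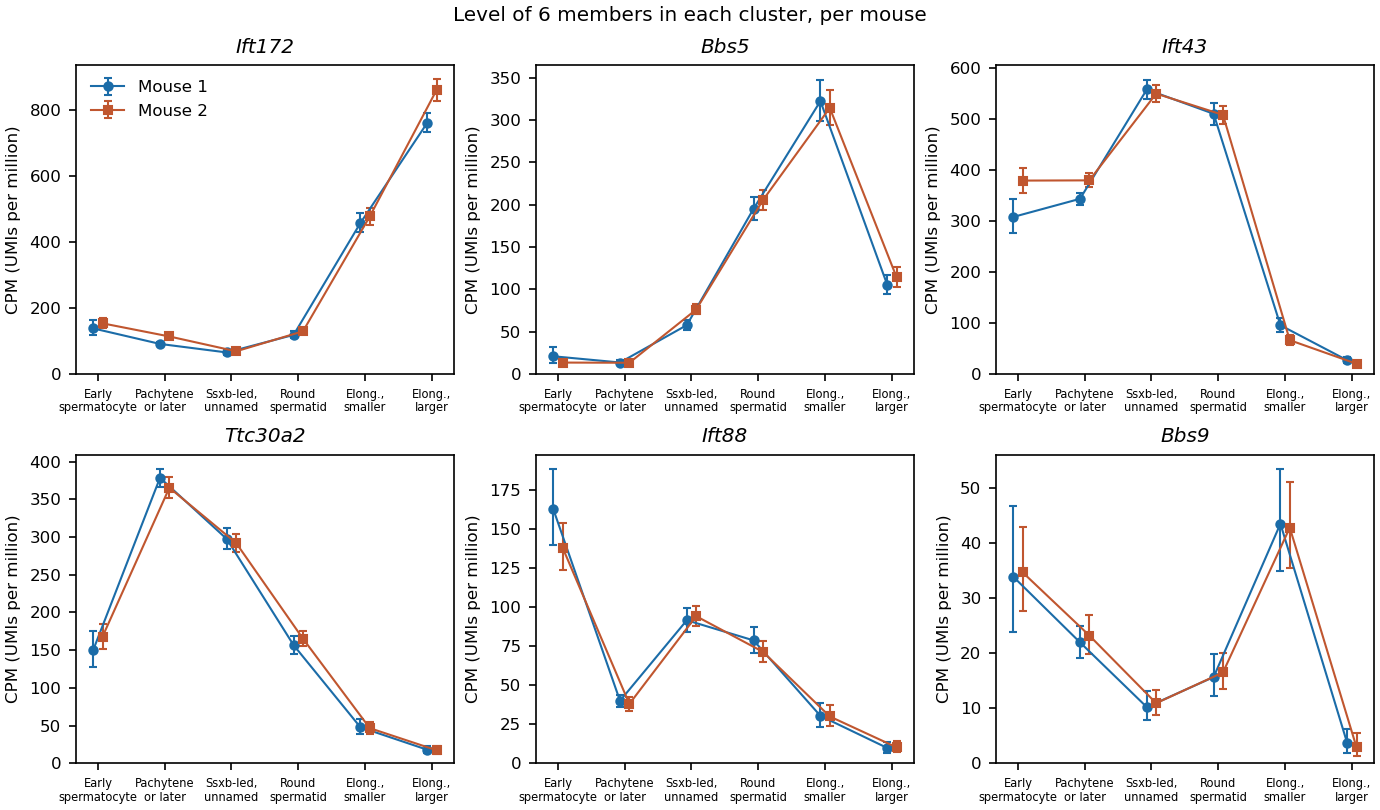
CPM of 6 members in the 6 clusters in the inferred developmental order, with mouse 1 as blue circles and mouse 2 as orange squares. Bars are exact 95% Poisson intervals and cover counting error only. Ift172 ends at 760.1 and 859.5 CPM, Bbs5 peaks at 322 and 314 in the smaller elongating cluster, and Bbs9 has peaks in early spermatocytes and in the smaller elongating cluster.

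Many members changed between the pachytene or later cells and the Ssxb-led cluster, at shares near those of all rows. Fitted as clusters over 14146 rows, 12 members rose and 11 fell from pachytene or later cells into it, beside 31.8% and 30.8% of all rows. The rises included Bbs12 (3.05 ± 0.45, adjusted p = 3.96e-06), Ttc30b (2.46 ± 0.28), Bbs5 (2.37 ± 0.17) and Bbs2 (1.63 ± 0.21), and those of Ift88, Ift81, Ift57 and Traf3ip1 were between 1.08 and 1.31. Bbs12 and Ttc30b passed the filter on low counts through classes in which they were high. Their rises are therefore not independent of the filter. From there into round spermatids 4 members rose and 13 fell, beside 25.7% and 20.2% of all rows, and the 4 were Bbs5, Ift172, Bbs9 and Cluap1. Into the smaller elongating cluster 5 rose (Ift172, Bbs9, Wdr19, Bbs5 and Bbs2) and 17 fell, beside 23.4% and 20.9%. Into the larger 2 rose (Ift172 and Wdr19) and 13 fell, beside 16.3% and 23.2%.

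Cells were also ordered along a diffusion pseudotime computed without the members and divided into 10 bins of equal size. In both mice 17 members were highest within the first 3 bins, which hold spermatocytes and 71 cells of the Ssxb-led cluster. The share of all rows highest in these bins was not computed, so this count has no background. Ift172 and Bbs5 were highest in the last bin, at 695 and 729 CPM and at 228 and 230 CPM. With 20 bins Ift172 was again highest in the last in both mice, and Bbs5 in bin 19 in mouse 1 and bin 14 in mouse 2. The last 3 bins mix both elongating clusters. Median pseudotime was 0.909 in the smaller and 0.899 in the larger, the reverse of the order used here. That order was taken from the falling score of round spermatid markers, 0.375 in the smaller and -0.564 in the larger. Statements on the step from the smaller to the larger cluster rest on this choice.

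The promoters of 4 members that moved in contrasting ways are shown, as RFX transcription factors are known to drive ciliary genes through the X-box. RefSeq promoters of GRCm38.p6, 250 bases before to 50 after the start, were at hand for 28 members and lacked Ift80, Ift81, Ift122, Ttc30b and Ift88os. The motif GTTGCC, an arm of the X-box, occurred on either strand in 12 of the 28 (42.9%) and in 12.5% of all 32851 promoters. Capitals mark it, as GGCAAC where it lies on the other strand. Ift172 rose late and has it at the start itself. Bbs5 rose from the Ssxb-led cluster to the smaller elongating cluster and then fell. Ttc30a2 peaked in pachytene or later cells, and Ift88 fell, rose and fell again.
Ift172 (chr5:31291065-31291364, minus strand): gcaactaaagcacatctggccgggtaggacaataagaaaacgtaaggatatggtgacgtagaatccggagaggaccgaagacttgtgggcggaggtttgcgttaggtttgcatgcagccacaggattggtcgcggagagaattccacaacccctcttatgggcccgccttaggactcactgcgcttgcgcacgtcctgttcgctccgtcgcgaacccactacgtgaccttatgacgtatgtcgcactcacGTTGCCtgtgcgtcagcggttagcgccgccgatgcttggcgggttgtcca
Bbs5 (chr2:69646921-69647220, plus strand): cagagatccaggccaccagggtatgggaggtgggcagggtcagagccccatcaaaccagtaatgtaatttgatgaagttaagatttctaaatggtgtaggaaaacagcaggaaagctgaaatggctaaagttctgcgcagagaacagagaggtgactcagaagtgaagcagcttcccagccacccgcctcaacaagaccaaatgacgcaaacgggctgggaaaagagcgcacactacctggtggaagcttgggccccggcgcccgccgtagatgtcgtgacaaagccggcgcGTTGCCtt
Ttc30a2 (chr2:75978130-75978429, minus strand): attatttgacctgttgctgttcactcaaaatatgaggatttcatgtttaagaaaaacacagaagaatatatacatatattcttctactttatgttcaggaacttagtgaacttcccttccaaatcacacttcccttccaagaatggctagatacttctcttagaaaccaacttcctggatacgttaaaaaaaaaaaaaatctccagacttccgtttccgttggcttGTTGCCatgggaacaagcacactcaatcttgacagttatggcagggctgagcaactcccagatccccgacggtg
Ift88 (chr14:57423821-57424120, plus strand): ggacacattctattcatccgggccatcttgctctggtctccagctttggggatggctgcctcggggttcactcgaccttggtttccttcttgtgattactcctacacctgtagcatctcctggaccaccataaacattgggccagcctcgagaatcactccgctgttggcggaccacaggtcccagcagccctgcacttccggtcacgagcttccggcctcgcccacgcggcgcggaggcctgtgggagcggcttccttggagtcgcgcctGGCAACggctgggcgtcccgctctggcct
The other promoters with the motif were those of Traf3ip1, Bbs7, Ttc26, Wdr35, Ift27, Ift57, Ift140 and Bbs1, members that peaked in early spermatocytes or in the Ssxb-led cluster, apart from Ift140. Members with and without the motif were found among those that rose and those that fell, for example Bbs9 and Wdr19 without it. A match of letters is a description and was not tested for binding.

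Other genes of the pathway are given beside the members, and in the 3 comparisons 24.9%, 36.9% and 27.0% of all rows rose and 23.4%, 37.4% and 26.0% fell. Of the 4 kinesin-2 genes, 1 rose at the first step, 2 rose and 1 fell into round spermatids, and 1 rose and 2 fell after them. Kifap3, the adaptor subunit of heterotrimeric kinesin-2, went from 86.1 and 90.2 CPM in pachytene or later cells to 642 and 636 in round spermatids (3.17 ± 0.14, edgeR, adjusted p = 3.92e-14), while Kif3b fell by 0.81 ± 0.14 (adjusted p = 2.08e-05). Kif17, the homodimeric motor, rose by 3.22 ± 0.18 (adjusted p = 2.14e-12). This comparison leaves out the Ssxb-led cells, in which Kif17 already stood at 33.53 and 32.04 CPM. It was 36.64 and 40.11 CPM in round spermatids. Of the 5 dynein-2 genes 3 fell and 1 rose at the first step, 2 fell and 1 rose into round spermatids, and 3 fell and 0 rose into elongating or condensing spermatids (edgeR; 0 rose also at an unadjusted p under 0.05 and under DESeq2). Dync2h1, the dynein-2 heavy chain, fell in all 3 comparisons, to 3.38 and 8.49 CPM in the smaller elongating cluster.

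Among 7 adaptors and partners tested, 2 rose and 3 fell, then 2 rose and 2 fell, then 1 rose and 5 fell. Under DESeq2 these counts were 1 and 3, 4 and 2, and 1 and 5. Lztfl1, a regulator of BBSome entry into cilia, fell by 2.91 ± 0.15 into elongating or condensing spermatids (edgeR, adjusted p = 1.54e-12), and Rabl2, a GTPase that binds IFT-B, rose there by 0.76 ± 0.14 (adjusted p = 8.75e-05). Of 13 transition zone genes tested 1 rose and 6 fell, then 7 rose and 3 fell, then 0 rose and 7 fell (edgeR; 0 rose also at an unadjusted p under 0.05 and under DESeq2), beside the same shares of all rows. Among the ciliary transcription regulators, Foxj1, Rfx1 and Rfx3 rose from pachytene or later cells to round spermatids by 3.03 ± 0.21, 4.19 ± 0.22 and 3.14 ± 0.28. Rfx2 fell by 1.16 ± 0.14 (edgeR, adjusted p = 3.44e-07). These comparisons leave out the Ssxb-led cells. Foxj1 was highest there, at 89.2 and 89.1 CPM, and was lower in round spermatids, at 58.5 and 50.3. Rfx1 and Rfx3 already lay above their pachytene or later levels in the Ssxb-led cells. The sizes of these changes may therefore depend on the name of those cells, and no alternative is given for them.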

How the data were processed

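Testis cells of 2 mice were captured with the Chromium 3′ v2 chemistry. Per the labels and the methods of the study, the authors demultiplexed with bcl2fastq 2.17.1.14, aligned and counted reads with Cell Ranger 2.0.0 against a repeat-masked GRCm38 genome with added transposon sequences, and thinned the reads to the same mean number per cell in both mice. The deposited values are whole UMI counts per row and cell, without normalization. Reads in masked repeats at the 3′ end of a gene are lost to its count. The ending of each barcode was taken as the mouse number, and 0 barcodes were shared. Depth was 27450497 UMIs in mouse 1 and 30302332 in mouse 2, or 7114 to 154431 UMIs per cell. Intervals cover counting error only.

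All 2552 cells and 51868 rows were kept, repeats included. K-means (K = 9, seed 42) was run on 10 principal components of 27758 rows without the members. A cluster was named where at least 3 marker families reached 1.5 times the CPM of all cells, a condition set after the clusters were seen, as was joining pachytene and late meiotic markers, since no cluster separated them. A comparison of late meiotic with pachytene cells was therefore not made. Members and lists were chosen with earlier results of these data known. Scrublet called 25 doublets, which were kept. Clusters of 18 somatic or spermatogonial cells entered no test. UMIs were summed per mouse and class (10 sums) and compared with edgeR 4.0.16 in R 4.3.3 (TMM, filterByExpr, quasi-likelihood test, Benjamini-Hochberg over all rows, threshold 0.05), with all classes in 1 fit. The SE is the log2 fold change divided by the square root of F. All fold changes in the text are on the log2 scale with this SE. The p-values set changes against the spread between the 2 mice within classes, estimated over all classes and drawn together across rows. Classes were formed from the same cells, and the uncertainty of that assignment does not enter the p-values. Sums of 1 mouse come from the same animal, and their deviations from class means correlated between 0.0285 and 0.203. Full statistics with alternatives go to the 5 called members with the largest change in each direction with 1 sign in both mice, the named members. Some other changes have statistics without alternatives and are not among the named values. Examples are Ift43, Wdr19 and Ift140 into round spermatids and Ift88, Ift74 and Ttc26 after them. The fits of separate clusters were added after seeing the data. The fit was tested on simulated data. Alternatives were DESeq2 1.42.0, no filter, mouse as block, other clusterings, thinning to 5000 UMIs, no doublets, no repeat rows, library totals and other names for the Ssxb-led cluster. All 33 members were found by identifier in GENCODE (GRCm38), from which positions were taken. There 6 members overlap another gene on their strand and 13 on the other. Python 3.11.15, scanpy 1.11.5, scikit-learn 1.9.0 and matplotlib 3.10.9 were used.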

Additional observations from a re-analysis of the deposited data

Results flagged for a closer look

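Clusters of 7 Sertoli-like, 6 spermatogonium-like and 5 Leydig-like cells were too small for any test, and the members found there above the limit of 3 counts are given as values over both mice together. In the Sertoli-like cells, which nurse the germ cells, that limit was 35.4 CPM. Ift20 stood there at 153 CPM (13 UMIs), Ift43 at 129.7 (11 UMIs), Ift46 at 106 (9 UMIs), Ift74 at 82.6 (7 UMIs), Ift88 at 70.8 (6 UMIs), Ift172 at 59.0 (5 UMIs), and Ift52 and Ift122 at 47.2 each (4 UMIs). In the spermatogonium-like cells the limit was 45.9 CPM. Ift20 was at 245 CPM there (16 UMIs), Ift43, Ift52 and Ift81 at 76.5 each (5 UMIs), and Ift74 and Ttc21b at 61.2 each (4 UMIs). In the Leydig-like cells, the steroid-producing cells between the tubules, the limit was 59.2 CPM. Ift20 was at 414 CPM (21 UMIs, exact 95% Poisson interval 256 to 633) and Ift43 at 158 CPM (8 UMIs, 68.1 to 311). Ift20 and Ift43 were thus found above the limit in all 3 kinds of cell, and no BBSome member passed the limit in any of them. With so few cells, staying under the limit does not show absence. In the Sertoli-like cells Bbs5 and Bbs9 had 2 UMIs each (exact 95% Poisson interval 2.86 to 85.2 CPM), and Bbs2 had 0. The part of free RNA from the germ cells in these values was not tested.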

How the results depend on the processing

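The limits concern scaling, the names of the clusters and counting error. The median log2 fold change of the members into pachytene or later spermatocytes was -0.38 with DESeq2, -0.079 without the filter, -0.0097 with Leiden clusters, -0.075 with thinned cells, -0.0725 without doublets, -0.060 with the Ssxb-led cells counted as round spermatids, 0.014 with them counted as spermatocytes, which reversed it, and -0.43 with library totals. There 7 members rose with Leiden clusters and under both names for the Ssxb-led cells. Of all rows, 3946 of 14133 rose with Leiden clusters. With the Ssxb-led cells as round spermatids 4013 of 15080 rose, and as spermatocytes 5114 of 14681. Into round spermatids the median was -0.056 with DESeq2, -0.20 and -0.39 with the Ssxb-led cells as round spermatids and as spermatocytes, and -0.60 with library totals. Into elongating or condensing spermatids it was -1.13 with Leiden clusters, -0.88 with thinned cells, -1.36 with the Ssxb-led cells as round spermatids and -1.57 with library totals, and 3 members rose with Leiden clusters and 2 with library totals. Of all rows, 3567 of 14133 rose there with Leiden clusters and 2180 of 15002 with library totals. Bbs5 turned there to -0.022 with library totals and Bbs2 to -0.19 with the Ssxb-led cells as round spermatids. Without replicate 1 or 2, which leaves 1 mouse and no test, the first median ranged from -0.26 to -0.20, the second from -0.37 to -0.27 and the third from -0.87 to -0.62. With the mouse as replicate block, the paired fit, the members that rose and fell were 5 and 14, 10 and 17, and 5 and 20. Of all 15002 rows these were 4030 and 3809, 5703 and 5916, and 4307 and 4255. No named call was lost in that fit. The cause of these changes was not tested. A total of 332 values of named members kept direction and call, 12 kept direction and lost the call and 2 reversed. This total includes K-means with K = 10, which gave the same counts of calls as the main fit in all 3 comparisons. The settings are therefore not independent checks. Members with few UMIs, Bbs12 above all, are limited by depth.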
